A study of Mus musculus with 9 samples.

Results

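The cytosolic ribosomal protein genes were followed in myeloid progenitors (MPs) that carry the Nup98-Hoxa10hd fusion (NA) and in wild-type (WT) MPs. Members were chosen by gene symbol: those beginning with Rpl or Rps and a digit, with Rplp0, Rplp1, Rplp2 and Rpsa. Symbols of pseudogenes and of the S6 kinases, which are not ribosomal proteins, were dropped. The rule left 91 of the 37980 genes counted, of which 45 encode proteins of the large subunit, 31 encode proteins of the small subunit, and 15 are paralogues or other genes whose symbols fit the rule. All 76 subunit genes had enough counts to be tested, as did 10 of the 15 others.

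Poly(A) RNA was sequenced from 4 samples of NA MPs and 5 samples of WT MPs, each of 100000 sorted Lin-ckit+Sca1- bone marrow cells of C57BL/6 mice. NA MPs were Tdtomato+ donor-derived cells of recipients of NA multipotent progenitors (MPPs), in which Vav-Cre switches the fusion on throughout the blood system. WT MPs were CD45.2+ cells of recipients of WT MPPs, and the labels do not say whether they derived from donor or host. Both were collected 3 months after transplantation by the labels (a later month by the study's methods). All recipients in both groups were irradiated, transplanted mice. Totals ran from 6602851 to 6734284 expected counts a sample, so depth was nearly the same in all 9. Hoxa10, one partner of the fusion, averaged 129 ± 17.9 (SD, n = 4) normalised counts in NA MPs against 8.18 ± 2.48 (SD, n = 5) in WT MPs, and all 12 myeloid progenitor markers examined were detected in both groups. Whether each sample came from 1 mouse is not named in the labels, so the p-values measure the spread between these samples.

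The cytosolic ribosome has a small subunit, which reads the mRNA, and a large subunit, which joins amino acids and releases the growing chain through an exit tunnel. Each is assembled in the nucleolus from ribosomal RNA and ribosomal proteins, which are needed in matched amounts. Many mRNAs of these proteins start with an unbroken run of pyrimidines, through which their translation follows nutrient signals, and in blood formation the loss of 1 copy of some of the genes causes Diamond-Blackfan anaemia or the anaemia of the 5q deletion.

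The start sites of several members are shown because the run at the first base is a feature many of their mRNAs share, and because the genes below differed in how far they moved. Each line gives the bases from 40 before to 20 after the first base of the RefSeq start (GRCm38.p6), 5′ to 3′ on the gene's strand, with an unbroken run of at least 8 C or T that touches the 10 bases either side of the start in capitals. A run so defined lies near the start and need not include the first base of the RNA. Rpl18, Rpl13, Rpl35 and Rps9 were among the members that rose most and have such a run. That of Rpl13, 10 bases from -16, ends before the RefSeq start, and that of Rpl18 begins 1 base after it. Rps19 rose as much and has none at the start used. Rpl14 and Rpl37 were the members that differed least between the groups, one with a run and one without. Rpl22, which has no run at the start used, is followed by its paralogue Rpl22l1, which has one. Only the start shown was examined for each gene, so a run at another start would be missed, and a run of fewer than 8 bases was not counted.
Rpl18 (chr7:45718031-45718090, + strand): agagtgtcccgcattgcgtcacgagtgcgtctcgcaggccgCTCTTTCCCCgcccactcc
Rpl13 (chr8:123102310-123102369, + strand): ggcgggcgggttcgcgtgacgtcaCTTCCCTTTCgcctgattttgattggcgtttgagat
Rpl35 (chr2:39005112-39005171, - strand): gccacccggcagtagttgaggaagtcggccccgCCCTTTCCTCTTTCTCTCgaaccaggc
Rps9 (chr7:3704001-3704060, + strand): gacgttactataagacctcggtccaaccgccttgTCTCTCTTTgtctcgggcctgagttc
Rps19 (chr7:24884552-24884611, + strand): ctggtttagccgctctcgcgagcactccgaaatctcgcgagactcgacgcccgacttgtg
Rpl14 (chr9:120571477-120571536, + strand): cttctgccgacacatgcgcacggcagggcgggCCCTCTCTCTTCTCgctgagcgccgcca
Rpl37 (chr15:5116573-5116632, + strand): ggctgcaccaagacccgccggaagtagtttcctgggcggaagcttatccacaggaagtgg
Rpl22 (chr4:152325686-152325745, + strand): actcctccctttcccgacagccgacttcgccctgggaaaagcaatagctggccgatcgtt
Rpl22l1 (chr3:28805468-28805527, + strand): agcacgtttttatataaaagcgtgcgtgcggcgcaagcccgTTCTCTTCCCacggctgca

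The promoter table held 56 of the 76 subunit genes. A run near the RefSeq start was present in 25 of these 56 (44.6%), against 13.9% of 27025 promoters of the same 300 bases. Genes without a run at that start may have one at another, or one too short to be counted. On either strand, CCGGAA, the core of ETS factor sites, was found in 51.8% of the subunit genes against 15.2% of all promoters, and GGGCGG, an SP1 site, in 60.7% against 35.9%. AAGATGGC, a YY1 site, was found in 7.14% against 2.88%, the E-box CACGTG in 8.93% against 7.24%, and TATAAA in 8.93% against 14.2%. These are matches of letters, and no binding was measured. The median log2 fold change (NA MPs over WT MPs) was 0.11 over the 25 genes with a run and 0.082 over the 31 without, and 19 and 23 of them respectively were higher in NA MPs by the test described next. The ranges of the sets, 0.0071 to 0.17 and 0.015 to 0.16, cover nearly the same values.

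Transcripts of both ribosomal subunits were slightly more abundant in NA MPs than in WT MPs. Of the 45 large subunit genes 33 were higher and 0 lower, and of the 31 small subunit genes 25 were higher and 0 lower (edgeR quasi-likelihood test, adjusted p under 0.05). At an unadjusted p under 0.05 the lower genes were also 0, and DESeq2 called 28 and 22 higher and 0 lower. Of all 11966 genes tested, 17.9% were higher and 16.3% lower by the same call, or 34.2% in either direction. The rises were small, with a median log2 fold change of 0.093 for the large and 0.10 for the small subunit, 1.07-fold in both, while the median of all tested genes was -0.0013. Every one of the 76 fold changes was above 0, from 0.0071 (Rpl14) to 0.17 (Rpl18), against 49.7% of all tested genes. In bulk samples, more cells that express a gene and more RNA per cell cannot be told apart.

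**Figure D1:**
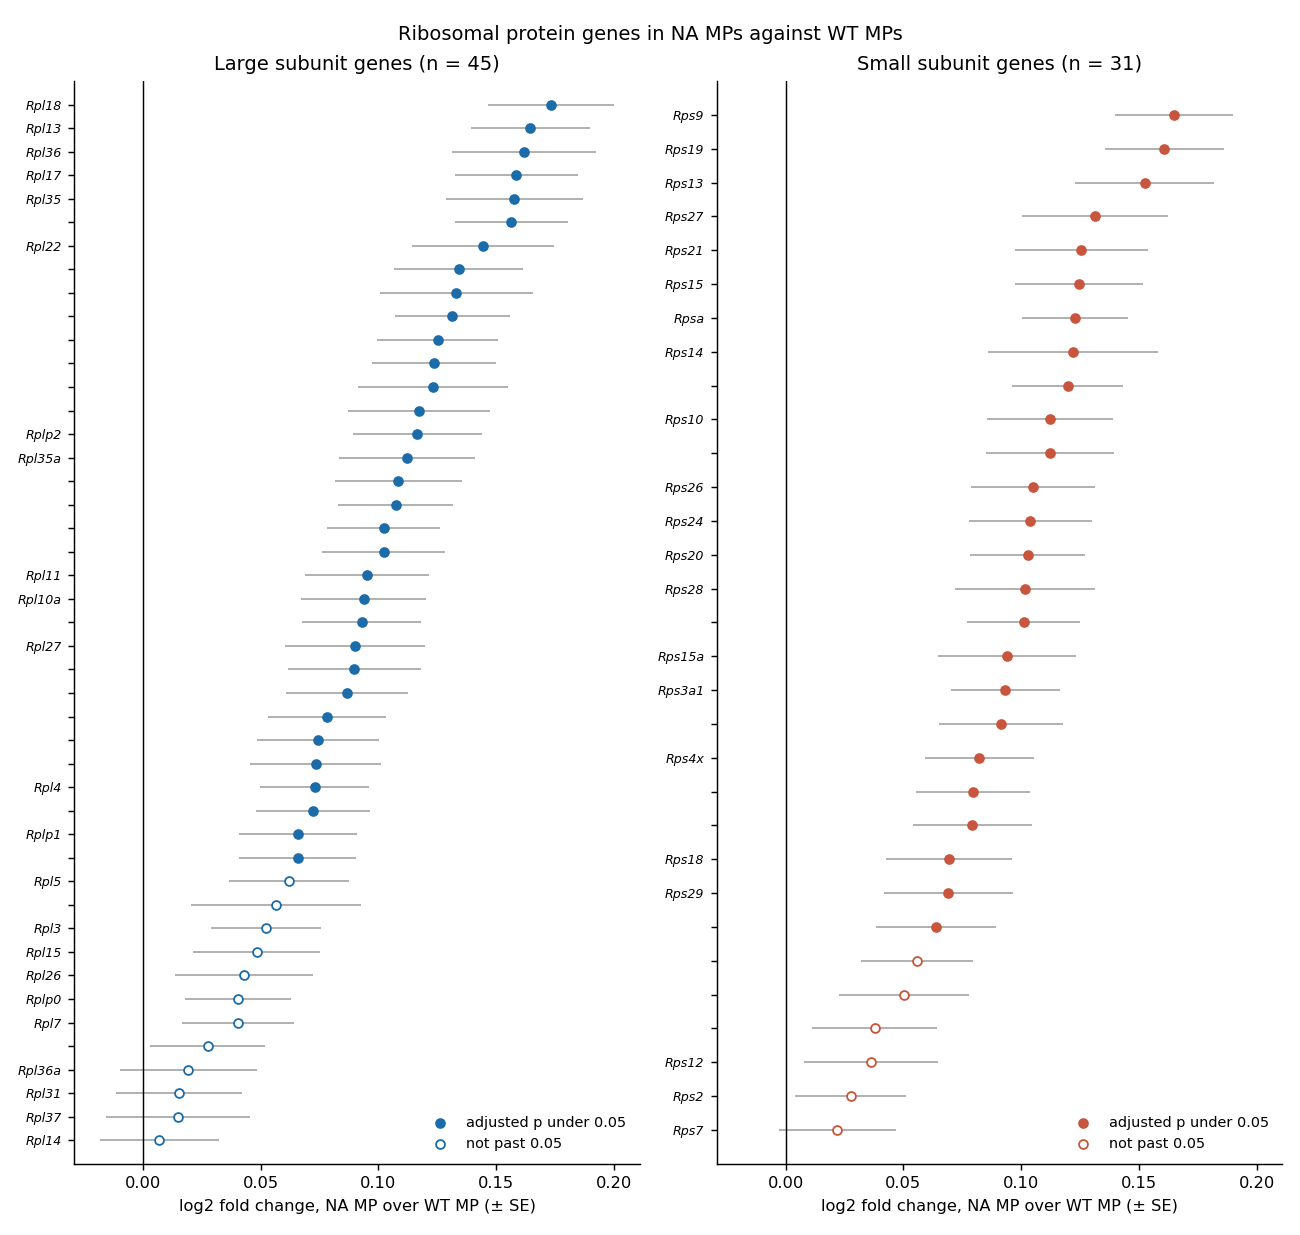
The log2 fold change of each subunit gene between NA MPs (n = 4) and WT MPs (n = 5) is drawn as a point with a line of 1 SE to either side, the large subunit on the left and the small on the right, with names for the genes described in the text. Filled points are past an adjusted p of 0.05 (33 of 45 and 25 of 31), and all 76 points lie to the right of 0.

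Ribosomal protein genes are among the most abundant of a cell, and small changes are easier to detect in abundant genes. Among the 454 other genes at least as abundant as the lowest subunit gene, 30.2% were higher and 25.1% were lower, and 50.2% had a fold change above 0. The median of those 454 was 0.0015. These 454 share only the lower limit of abundance with the subunit genes and were not matched to them gene by gene. In edgeR's test against a change of 1.2-fold 0 of the 76 passed, also at an unadjusted p under 0.05, while 5.64% of all tested genes passed it upward and 8.74% in either direction.

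**Figure D2:**
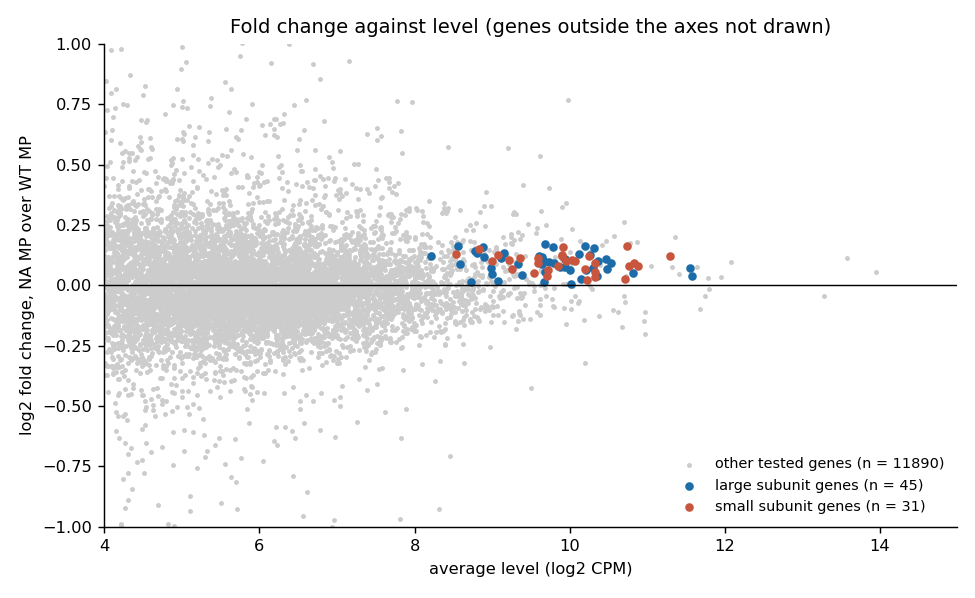
The log2 fold change of every tested gene within the axes is plotted against its average level in log2 CPM, with large subunit genes in blue, small subunit genes in orange and the others in grey. Subunit genes start at 8.21 on the level axis and form a narrow band between 0.0071 and 0.17, where the grey points spread to both sides of 0.

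By sample, the 76 genes took 8.03%, 7.97%, 7.86% and 7.71% of the counts of the NA MPs and 7.76%, 7.51%, 7.35%, 7.58% and 7.46% of those of the WT MPs. The means were 7.89% ± 0.139 (SD, n = 4) and 7.53% ± 0.153 (SD, n = 5). The groups overlapped in that WT MP replicate 1 was above NA MP replicate 4. The median over the subunit genes of a sample's log2 deviation from the WT mean, taken after normalisation, was 0.11, 0.098, 0.10 and 0.057 in the NA MPs and 0.043, -0.0053, -0.034, 0.011 and -0.013 in the WT MPs. On this scale the NA MPs were all above the WT MPs, with the same samples nearest to each other.

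The members tended to move together between samples of a group, in some samples more than in others. In NA MP replicate 4, 72 of 76 genes were below their NA mean. In WT MP replicate 1, 72 of 76 were above their WT mean, and in WT MP replicate 3, 65 were below it. The other samples were less one-sided. In NA MP replicates 1, 2 and 3, 53, 46 and 48 of the 76 genes were above their NA mean. In WT MP replicates 2, 4 and 5, 26, 55 and 19 were above their WT mean. In the most one-sided samples the level thus applied to most of the genes at once, so the 76 genes are not independent measurements. How all tested genes split in this way was not examined. Without NA MP replicate 4 the test called 33 large and 24 small subunit genes higher, and without WT MP replicate 1 it called 36 and 27.

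Large and small subunit genes rose by similar amounts, and the difference between them was not tested. Large subunit genes took 4.47% ± 0.0799 (SD, n = 4) of the counts in NA MPs against 4.27% ± 0.0893 (SD, n = 5) in WT MPs. Small subunit genes took 3.42% ± 0.0601 and 3.26% ± 0.0642. The ratio of large to small was 1.302, 1.312, 1.308 and 1.304 in the NA MPs and 1.313, 1.315, 1.312, 1.315 and 1.304 in the WT MPs. These values overlapped, with WT MP replicate 5 lying among the NA MPs, and the means were 1.31 in both groups.

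**Figure D3:**
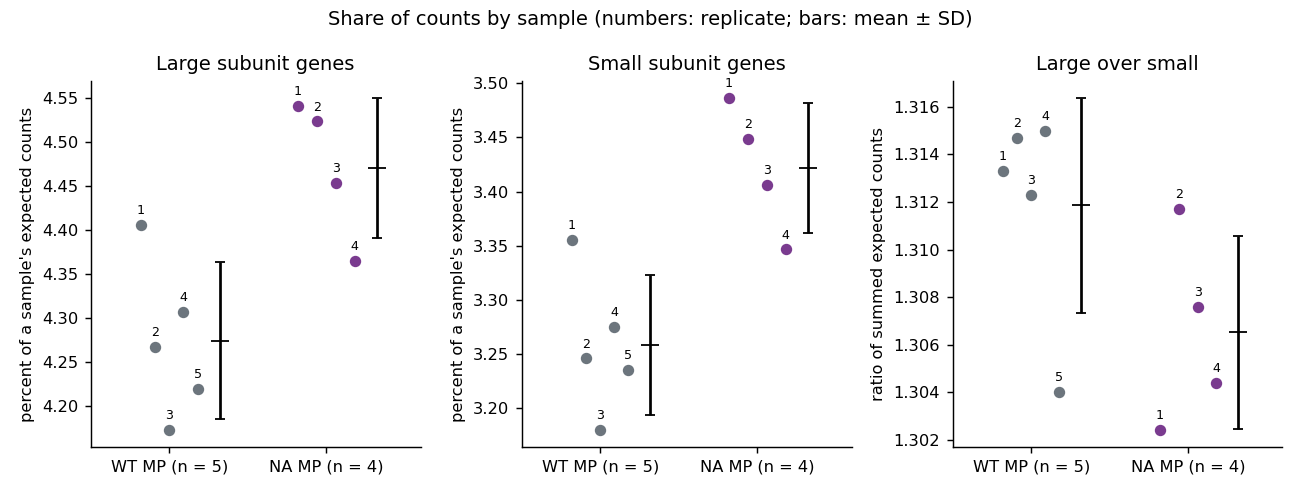
The share of each sample's counts in percent is plotted for large subunit genes and small subunit genes, with their ratio in the third panel, for WT MPs (n = 5) and NA MPs (n = 4); bars are means ± SD, numbers are replicates and the axes do not start at 0. NA MP replicate 4 lies level with WT MP replicate 1 in both shares, and all 9 ratios fall between 1.302 and 1.315.

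Of the large subunit proteins, several line or surround the exit of the growing chain. Rpl17, which lines the exit tunnel, had 6385, 6236, 6225 and 6101 normalised counts in the NA MPs and 5674, 5653, 5297, 5758 and 5558 in the WT MPs. Rpl35, which sits at the mouth of the tunnel, had 3516, 3296, 3181 and 3267 in the NA MPs and 3059.9, 2953, 2877, 3011 and 2959.8 in the WT MPs. In both genes the lowest NA MP exceeded the highest WT MP, as in 18 of the 45 large subunit genes (14.3% of all tested genes had groups apart in this way). Rpl17 rose by 0.16 ± 0.026 on the log2 scale (SE, adjusted p = 2.61e-06), and Rpl35 by 0.16 ± 0.029 on the log2 scale (SE, adjusted p = 2.19e-05). Rpl4, another protein of the tunnel wall and one of the most counted members, had 21325, 20265, 20415 and 19956 in NA MPs and 19794, 19726, 19600.0, 19592 and 18691 in WT MPs. Its groups did not overlap either, and the difference was 0.073 ± 0.023 on the log2 scale (SE, adjusted p = 0.0115). It no longer passed the threshold without NA MP replicate 1 (0.053, adjusted p = 0.0702) or without WT MP replicate 5 (0.058, adjusted p = 0.0656), nor with scaling by library size only (0.052, adjusted p = 0.0702) or the replicate block (0.057, adjusted p = 0.109).

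The largest rise of the large subunit was that of Rpl18 (ENSMUSG00000059070), at 5945, 5989, 5787 and 5590.1 normalised counts in the NA MPs and 5316, 5085, 5216, 5269.6 and 4952 in the WT MPs. All NA MPs were above all WT MPs, and the difference was 0.17 ± 0.027 on the log2 scale (SE, adjusted p = 7.15e-07). Rpl18 lies at chr7:45715457-45720836 on the + strand and shares exon bases with a gene of the opposite strand, and whether the counting used strand is not given in the sources used here. Rpl13 (ENSMUSG00000000740, chr8:123102350-123105244) followed with 8638, 8478, 8277 and 7923 in the NA MPs and 7604, 7421, 7475, 7360.0 and 7301 in the WT MPs. NA MP replicate 4 was the lowest of its group and still above every WT MP, with a difference of 0.16 ± 0.025 on the log2 scale (SE, adjusted p = 7.07e-07). Rpl36 averaged 2667 ± 76.1 (SD, n = 4) normalised counts in NA MPs against 2384 ± 97.7 (SD, n = 5) in WT MPs. It rose by 0.16 on the log2 scale, and its groups did not overlap. Rpl22, an RNA-binding protein of the large subunit known for its part in lymphocyte development, rose by 0.14 ± 0.030 (SE, adjusted p = 0.000133).

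Among the small subunit genes, Rps9 (ENSMUSG00000006333, chr7:3703993-3706897), whose protein lies near the entry of the mRNA channel, rose most. It had 12823, 12201, 11787 and 11673 normalised counts in the NA MPs and 10982, 10647, 10946, 10981 and 10503 in the WT MPs. The groups were apart and the difference was 0.16 ± 0.025 on the log2 scale (SE, adjusted p = 6.39e-07). Rps19 (ENSMUSG00000040952, chr7:24884371-24889806), the gene most often mutated in Diamond-Blackfan anaemia, had 6993, 6792, 6814 and 6604 in the NA MPs and 6059, 5892, 6067, 6287 and 6114 in the WT MPs. The lowest NA MP was above the highest WT MP, and the difference was 0.16 ± 0.025 on the log2 scale (SE, adjusted p = 1.14e-06).

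The next were Rps13, Rps27, Rps21 and Rps15, all of the small subunit. Rps13 averaged 3187 ± 117 (SD, n = 4) normalised counts in NA MPs against 2868 ± 88.3 (SD, n = 5) in WT MPs, and rose by 0.15 ± 0.029 on the log2 scale (SE, adjusted p = 4.37e-05). Rps27 averaged 2580.4 ± 59.3 (SD, n = 4) normalised counts in NA MPs against 2356 ± 107 (SD, n = 5) in WT MPs, and rose by 0.13 ± 0.031 on the log2 scale (SE, adjusted p = 0.000674), with an overlap of 1 NA MP and 1 WT MP. In Rps21 and Rps15, which rose by 0.13 and 0.12, no NA MP fell below a WT MP. Of the 31 small subunit genes, 17 had every NA MP above every WT MP, as had 14.3% of all tested genes.

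The P stalk, which recruits the GTPases of translation to the large subunit, is made of Rplp0 and of dimers of Rplp1 and Rplp2. The values of its genes differed. Rplp2 had 5578, 5745, 5551 and 5266 normalised counts in the NA MPs and 5344, 5137, 4975, 5135 and 4938 in the WT MPs, and rose by 0.12 ± 0.027 on the log2 scale (SE, adjusted p = 0.000643). Rplp1 had 9741, 10118, 9688 and 9477 in the NA MPs and 9796, 9239, 9105, 9377 and 9085 in the WT MPs, with a difference of 0.066 ± 0.025 on the log2 scale (SE, adjusted p = 0.0371). Rplp0, the base of the stalk, had 20645, 21128, 20248 and 20267 in the NA MPs and 20457, 20204, 19785, 20212 and 19352 in the WT MPs, with a difference of 0.041 ± 0.023 on the log2 scale (SE, adjusted p = 0.168). In each of the 3 genes WT MP replicate 1 overlapped the NA MPs, and only Rplp1 and Rplp2 passed the threshold. Rplp1 passed in 7 of the 22 alternative settings, and did not without NA MP replicate 2 or 3 or any one of WT MP replicates 2 to 5 (0.048 to 0.069, the lowest with an adjusted p of 0.170). The differences between the 3 fold changes were not tested.

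On the scale of normalised counts per kilobase of 1 representative transcript, levels ran from 989 (Rps15a) to 19066 (Rplp1), with medians of 6732 for the large and 8272 for the small subunit. The lowest value rests on a representative transcript of 5179 bases for Rps15a, far longer than the median of 886.5 for subunit genes. The highest of the large subunit were Rplp1, Rplp0 and Rpl4, and of the small subunit Rps12, Rps18 and Rps4x. Rps12 had 8506, 8766, 8718 and 8724 normalised counts in the NA MPs and 9139.8, 8519, 7878, 8378 and 8398 in the WT MPs. Its highest sample was a WT MP, and the difference was 0.036 ± 0.028 on the log2 scale (SE, adjusted p = 0.352). Rps18 averaged 8011 ± 57.1 (SD, n = 4) normalised counts in NA MPs against 7635 ± 353 (SD, n = 5) in WT MPs. Rps4x averaged 12913 ± 301 (SD, n = 4) normalised counts in NA MPs against 12198 ± 161 (SD, n = 5) in WT MPs. They had log2 fold changes of 0.069 and 0.082 that passed the threshold. Rps4x did so in all 21 alternatives other than the test against 1.2-fold, and Rps18 in 7. Rps18 did not pass without any one of NA MP replicates 1 to 3 or WT MP replicates 2 to 5 (0.048 to 0.071, the lowest without WT MP replicate 3, adjusted p = 0.179). Without WT MP replicate 1 the value of Rps12 was 0.065, past the threshold (adjusted p = 0.0434).

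The members that differed least were Rpl14 (0.0071), Rpl37 (0.015), Rpl31 (0.015) and Rpl36a (0.019) in the large subunit and Rps7 (0.022), Rps2 (0.028) and Rps12 (0.036) in the small subunit, all as log2 fold changes. Rpl14 averaged 6886 ± 143 (SD, n = 4) normalised counts in NA MPs against 6852 ± 184 (SD, n = 5) in WT MPs. Their fold changes were smaller than their standard errors or little above them, and none of these genes passed the threshold. They were picked out after their values were seen, as was Rpl22 above. Of the 76 genes, 11 passed the threshold under none of the settings tried. Another 32 (18 large, 14 small) passed it under each of them other than the test against 1.2-fold.

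Among 21 genes that cause Diamond-Blackfan anaemia or lie in the 5q deletion, 15 were higher (71.4%, against 76.3% of all subunit genes and 17.9% of all tested genes) and 0 lower. Their median log2 fold change was 0.10, against 0.094 for all subunit genes. Rps14, the ribosomal gene of the 5q deletion, had 6548, 6923, 6381 and 6752 normalised counts in the NA MPs and 6552, 6316, 5696, 6193 and 5803 in the WT MPs. The groups overlapped, and it rose by 0.12 ± 0.036 on the log2 scale (SE, adjusted p = 0.0134). Without NA MP replicate 2 its adjusted p was 0.0503. Rpl11, which with Rpl5 binds the 5S RNA and can restrain Mdm2, averaged 5878 ± 94.6 (SD, n = 4) normalised counts in NA MPs against 5503 ± 194 (SD, n = 5) in WT MPs, and rose by 0.095 ± 0.026 on the log2 scale (SE, adjusted p = 0.00373). Rpl5 averaged 8089 ± 157 (SD, n = 4) normalised counts in NA MPs against 7748 ± 261 (SD, n = 5) in WT MPs, with a difference that did not pass the threshold, 0.062 ± 0.025 on the log2 scale (SE, adjusted p = 0.0533). It passed in 6 of the 22 alternative settings. The others that rose were Rpl18, Rpl27, Rpl35, Rpl35a, Rps10, Rps15a, Rps19, Rps20, Rps24, Rps26, Rps27, Rps28 and Rps29. Rpl15, Rpl26, Rpl31 and Rps7 did not pass, with log2 fold changes from 0.015 to 0.048. Rps29 passed in 8 of the 22 alternative settings, and did not without NA MP replicate 3 (0.044, adjusted p = 0.266) or any one of WT MP replicates 2 to 4. Rpl27 did not pass without NA MP replicate 3 (0.074, adjusted p = 0.0792) or WT MP replicate 5 (0.077, adjusted p = 0.0604), nor by DESeq2 (adjusted p = 0.0531), with library size only (adjusted p = 0.0625) or with the replicate block (adjusted p = 0.0710). Rps15a did not without NA MP replicate 3 (0.077, adjusted p = 0.0615) or WT MP replicate 3 (0.073, adjusted p = 0.0572).

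Fau and Rack1 encode ribosomal proteins under other names and were also higher in NA MPs. Fau, which encodes Rps30 fused to a ubiquitin-like protein, had 4128, 4575, 4319 and 4197 normalised counts in the NA MPs and 3995, 3768, 3823, 3821 and 3649 in the WT MPs. The groups were apart, and the difference was 0.18 ± 0.029 on the log2 scale (SE, adjusted p = 3.41e-06). Rack1, a scaffold on the head of the small subunit, averaged 14523 ± 144 (SD, n = 4) normalised counts in NA MPs against 13726 ± 299 (SD, n = 5) in WT MPs, and rose by 0.082 ± 0.023 on the log2 scale (SE, adjusted p = 0.00398).

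Of the 10 paralogues and other genes tested, 1 was higher (17.9% of all tested genes were higher) and 0 were lower, and 7 had a fold change above 0. At an unadjusted p under 0.05 edgeR gave 2 higher and 1 lower, and DESeq2 called 0 in either direction. Rpl22l1, which can take the place of Rpl22 in the ribosome, had 723, 708, 771 and 729.6 normalised counts in the NA MPs and 770.5, 732, 722, 743 and 733 in the WT MPs. The groups overlapped throughout, and the difference was -0.014 ± 0.041 on the log2 scale (SE, adjusted p = 0.830). Rpl7l1, a relative of Rpl7, had 995, 967, 976 and 906 in the NA MPs and 1057, 1035, 1033, 978 and 1003 in the WT MPs. Most NA MPs were below most WT MPs, with a difference of -0.088 ± 0.038 on the log2 scale (SE, adjusted p = 0.0660). It passed the threshold with library size only (-0.11, adjusted p = 0.0205), without NA MP replicate 1 (-0.10, adjusted p = 0.0381) and without WT MP replicate 4 (-0.10, adjusted p = 0.0448). Rps27l averaged 599.5 ± 30.7 (SD, n = 4) normalised counts in NA MPs against 579 ± 16.7 (SD, n = 5) in WT MPs. Rpl36al, an intronless copy of Rpl36a, averaged 1356 ± 78.4 (SD, n = 4) normalised counts in NA MPs against 1362 ± 51.8 (SD, n = 5) in WT MPs. Their log2 fold changes were 0.050 and -0.0065, and neither passed.

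Each paralogue was also set against its parent gene within the sample, which is not affected by the scaling of the libraries. Rpl22l1 was 22.6%, 23.2%, 25.8% and 23.9% of Rpl22 in the NA MPs and 26.2%, 26.5%, 27.5%, 26.9% and 26.1% in the WT MPs. The NA MPs were all below the WT MPs (mean 23.9% ± 1.42 against 26.6% ± 0.568, SD, n = 4 and 5). Rpl7l1 was 11.00%, 11.1%, 10.9% and 10.5% of Rpl7 in the NA MPs and 12.1%, 12.2%, 12.02%, 11.4% and 11.7% in the WT MPs. Here too the groups were apart, with means of 10.9% ± 0.261 and 11.9% ± 0.341 (SD). In exact two-sided permutation tests, with 126 arrangements of the labels, both had p = 0.0159, the smallest that this design allows, and 0.0714 after adjustment over the 9 pairs compared. Rps27l was 23.2% ± 0.715 of Rps27 in NA MPs and 24.6% ± 0.764 in WT MPs (exact permutation p = 0.0476, adjusted 0.143), and Rpl36al was 37.6% ± 1.47 of Rpl36a against 38.3% ± 1.21 (exact permutation p = 0.460, adjusted 0.592). None of the 9 ratios passed the adjustment.

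**Figure D4:**
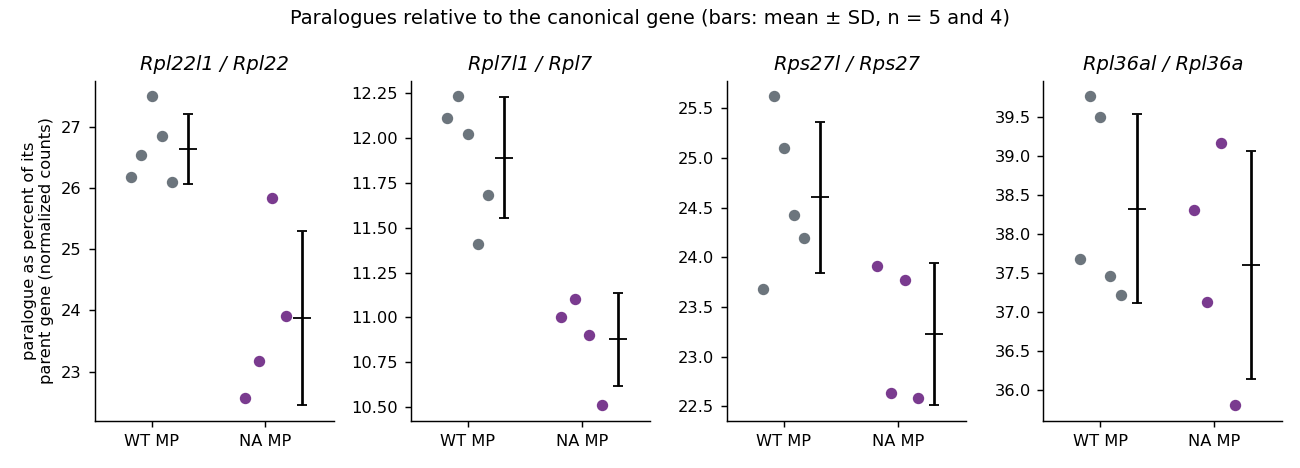
The normalised count of a paralogue is plotted as a percent of that of its parent gene for WT MPs (n = 5) and NA MPs (n = 4), for Rpl22l1, Rpl7l1, Rps27l and Rpl36al; points are samples, bars are means ± SD and the axes do not start at 0. NA MPs lie below WT MPs for Rpl22l1 and Rpl7l1, and the groups overlap for Rps27l and Rpl36al.

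Rps3a2, a copy of Rps3a1 without introns that GENCODE M21 lists as a processed pseudogene, was the paralogue that passed the threshold. It had 91.3, 86.2, 95.3 and 94.2 normalised counts in the NA MPs and 83.8, 71.8, 81.9, 72.8 and 68.9 in the WT MPs, with a difference of 0.27 ± 0.11 on the log2 scale (SE, adjusted p = 0.0432). As 0.735% of Rps3a1 in NA MPs and 0.648% in WT MPs, its reads and those of the parent may not be fully told apart, and it passed the threshold in 9 of the 22 alternative settings. Leaving out any of NA MP replicates 1, 3 and 4 or WT MP replicates 2, 4 and 5 ended the call, with values from 0.24 to 0.28. The other copies, Rps3a3, Rps27rt, Rpl37rt and Rpl6l, averaged fewer than 100 normalised counts, and their log2 fold changes, 0.057, 0.26, 0.19 and 0.12, were not past the threshold. Rps19bp1, which fits the rule by its symbol and encodes a partner of Rps19, did not pass either, at 0.020.

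Several members were counted rarely or not at all. Rpl3l, the paralogue of Rpl3 known from heart and skeletal muscle, had 8.40, 9.10, 11.1 and 4.96 expected counts in the NA MPs and 2.16, 0.856, 0, 2.001 and 2.80 in the WT MPs. Rps4l, a transcribed processed pseudogene by GENCODE M21, had 0, 0, 1.11 and 0 in the NA MPs and 4.32, 11.98, 6.11, 11.01 and 9.32 in the WT MPs. In both genes the groups did not overlap, and they moved in opposite directions. They lay below the expression filter, and in a fit without it edgeR gave adjusted p-values of 0.000204 and 8.61e-08, and DESeq2 gave 0.00702 and 0.000278. An exact two-sided permutation test of either gene gave p = 0.0159, the smallest this design allows, and no fold change is given at such counts. Rps12l1 had at most 3.42 expected counts in any sample. Rpl10l and Rpl39l, known from the testis, had 0 counts in all 9 samples, and a count of 0 is compatible with up to 3 counts in each.

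The genes around the ribosome did not all move with its proteins. Of 7 genes listed under elongation, with Tpt1 among them, 5 were higher (71.4%, against 17.9% of all tested genes) and 0 lower. This held by edgeR and by DESeq2 (1 was lower at an unadjusted p under 0.05). The median of their log2 fold changes was 0.092. Eef1a1, which brings aminoacyl-tRNA to the ribosome, had 86248, 83002, 84062 and 84032 normalised counts in the NA MPs and 78660.0, 78940.0, 76792, 79094 and 76732 in the WT MPs. Tpt1, an abundant translationally controlled protein, had 12783, 12121, 12642 and 12273 in the NA MPs and 11323, 10911, 10947, 11306 and 10703 in the WT MPs. In both genes all NA MPs were above all WT MPs, and they rose by 0.11 ± 0.020 on the log2 scale (SE, adjusted p = 1.10e-05) and 0.17 ± 0.024 on the log2 scale (SE, adjusted p = 6.40e-08) respectively. Eef1d and Eif5a did not pass, at -0.082 and -0.016.

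Of 31 initiation genes 4 were higher (12.9%, against 17.9% of all tested genes) and 10 lower (32.3%, against 16.3%), with a median of -0.038. Eif1, a factor of start codon choice, averaged 1669 ± 62.6 (SD, n = 4) normalised counts in NA MPs against 1462 ± 28.3 (SD, n = 5) in WT MPs, and rose by 0.19 ± 0.033 on the log2 scale (SE, adjusted p = 5.26e-06). Eif3f, a subunit of eIF3, rose by 0.14, and Eif3h and Pabpc1 rose by 0.11 and 0.077. Pabpc1 did not pass without NA MP replicate 3 (0.062, adjusted p = 0.0652), with library size only (adjusted p = 0.0520) or with the replicate block (adjusted p = 0.0548). Eif4e, which binds the cap of the mRNA, had 836, 815, 866 and 865 normalised counts in the NA MPs and 986, 988, 940.3, 969 and 951 in the WT MPs. All NA MPs were below all WT MPs, and the difference was -0.19 ± 0.038 on the log2 scale (SE, adjusted p = 5.03e-05). Eif3j1, at -0.15, Eif3a, at -0.14, and Eif4g1, at -0.12, fell as well. Eif3j1 did not pass without NA MP replicate 2 or 4 or WT MP replicate 3 or 4 (-0.14 to -0.11), nor by DESeq2 (adjusted p = 0.0906). With the correction for GC content and length it was -0.080 (adjusted p = 0.236), and Eif4e and Eif3a passed at -0.12 and -0.079.

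The machinery that makes ribosomes was lower where it changed. Of 66 biogenesis genes 0 were higher and 30 lower (45.5%, against 16.3% of all tested genes), and DESeq2 called 0 higher and 19 lower. At an unadjusted p under 0.05, 0 were higher. The median of their log2 fold changes was -0.095, and 61 of the 66 values were below 0. Utp15, of the complex that processes the small subunit's RNA, had 326, 336, 346 and 358 normalised counts in the NA MPs and 421, 441, 455, 397 and 426 in the WT MPs. The groups were apart, and the difference was -0.33 ± 0.055 on the log2 scale (SE, adjusted p = 3.64e-06). Noc3l, a factor of large subunit assembly, averaged 262 ± 21.1 (SD, n = 4) normalised counts in NA MPs against 318 ± 11.3 (SD, n = 5) in WT MPs, with a difference of -0.28 ± 0.063 on the log2 scale (SE, adjusted p = 0.000307). The abundant nucleolar proteins Npm1 and Ncl fell by 0.11 and 0.071 on the log2 scale, whereas the difference of Fbl, -0.079, did not pass. Ncl did not pass without NA MP replicate 2 (-0.048, adjusted p = 0.148) or without WT MP replicate 2 or 3 (-0.068 and -0.062), and with the correction for GC content and length it was -0.0047 (adjusted p = 0.895).

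Of 19 tested genes of RNA polymerase I and its factors, which transcribe ribosomal RNA, 0 were higher and 3 lower (15.8%, near the 16.3% of all tested genes), with a median of -0.058. At an unadjusted p under 0.05, 1 of them was higher, and by DESeq2 0 were. Polr1a, its largest subunit, averaged 782 ± 10.3 (SD, n = 4) normalised counts in NA MPs against 883 ± 27.4 (SD, n = 5) in WT MPs, with a difference of -0.18 ± 0.039 on the log2 scale (SE, adjusted p = 0.000304). Polr1b and the initiation factor Rrn3 fell by 0.15 and 0.14 on the log2 scale. Rrn3 did not pass by DESeq2 (adjusted p = 0.123), with the correction for GC content and length (-0.10, adjusted p = 0.122), or without NA MP replicate 2 or 4 or WT MP replicate 1 or 2 (-0.14 to -0.11). Of 7 tested host genes of small nucleolar RNAs, 2 were higher (Gas5, 0.14, and Snhg15, 0.21) and 1 lower (Snhg17, -0.18), or 28.6% and 14.3% against 17.9% and 16.3% of all tested genes. Snhg15 did not pass without NA MP replicate 4 (0.15, adjusted p = 0.192) or without any one of WT MP replicates 2 to 4 (0.19 to 0.22), and Snhg17 did not without WT MP replicate 1 (-0.14, adjusted p = 0.0818). Neither passed by DESeq2 (adjusted p = 0.171 and 0.0829) or with the correction for GC content and length (adjusted p = 0.113 and 0.0529). Gas5, whose RNA is known to start with a pyrimidine run, had 3735, 3446, 3581 and 3797 normalised counts in the NA MPs and 3380.3, 3183, 3159, 3385 and 3434 in the WT MPs, with no overlap.

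**Figure D5:**
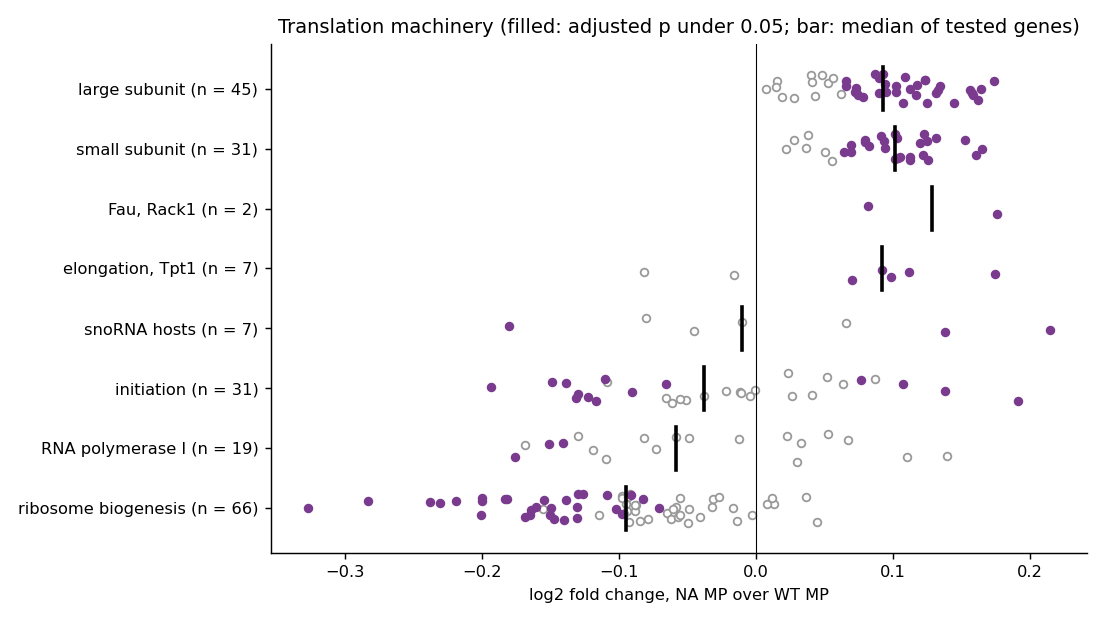
Each point is the log2 fold change of 1 tested gene between NA MPs (n = 4) and WT MPs (n = 5), in rows by list, with filled points past an adjusted p of 0.05 and a bar at the median of the list. The rows of subunit genes lie wholly to the right of 0, and that of ribosome biogenesis lies mostly to the left, around -0.095.

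Counts of short genes can depend on base composition and length. The subunit genes had a median GC content of 51.8% and a median length of 886.5 bases, against 50.3% and 2929 for all tested genes. After a correction of each sample for GC content and length, the median log2 fold change was 0.060 for the large and 0.069 for the small subunit, 24 and 17 genes were higher, and 69 of the 76 values stayed above 0. Of all 11966 tested genes, 3879 passed the threshold in either direction with the correction, against 4093 without it. Rpl13 then rose by 0.098 and Rps19 by 0.093, and Rpl18 and Rps9 moved by less than 1.5 times. Rpl36 (0.056, adjusted p = 0.0873) and Rps15 (0.043, adjusted p = 0.122) no longer passed the threshold of edgeR's test. The value of Rplp1 turned to -0.013 (adjusted p = 0.668). The rise was smaller for Rpl35 (0.098), Rpl11 (0.059), Rplp2 (0.069), Rps21 (0.069), Rps27 (0.082) and Fau (0.087). It was larger for Rps20 (0.16) and Rps15a (0.15), and slightly larger for Rpl17 (0.167), Rps24 (0.118), Rpl4 (0.078) and Eef1a1 (0.123). The correction used the length of 1 representative transcript per gene. For Rps20 and Rps15a this was 3706 and 5179 bases, far above the median of 886.5, so their larger values are less certain. Rps18 was at 0.014 (adjusted p = 0.668).

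Of the 21 disease genes 12 were higher after the correction, with 5 of the 15 calls lost and 2 gained. Those lost were Rps14 (0.062, adjusted p = 0.0642), Rpl27 (0.033, adjusted p = 0.346), Rps10 (0.027, adjusted p = 0.403), Rps28 (0.025, adjusted p = 0.486) and Rps29 (0.0090, adjusted p = 0.821). Those gained were Rpl5 (0.089, adjusted p = 0.000802) and Rpl15 (0.073, adjusted p = 0.0148). Their representative transcripts, of 2045 and 1922 bases, are also longer than the median of subunit genes.

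By GC content, the correction lowered mostly the values of members rich in GC. In the 25 members of highest GC content (54.0% to 60.8%), 21 were higher without it and 6 with it, and the median went from 0.10 to 0.037. In the 25 of lowest GC content (41.3% to 49.2%), 19 were higher in both cases, with medians of 0.082 and 0.089. Across the 76 genes, which are not independent replicates, Pearson's r of the fold change with GC content was 0.29 without and -0.39 with the correction. The size of the rise of GC-rich members thus depended on this choice. With the log2 of transcript length, Pearson's r of the fold change was 0.0055 without and 0.51 with the correction. The corrected values thus also followed the length of the representative transcript.

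Other cell types and states differed between the groups as well. The summed level of 18 erythroid markers, all of them detected, was 1022 to 1266 CPM in the NA MPs and 1903 to 2099 in the WT MPs. That of 13 pro-B and pre-B cell markers, all detected, was 230 to 406 against 59.1 to 64.5. Of 7 T cell markers 5 were detected, at 18.7 to 21.2 against 3.23 to 5.12 in sum, with Cd3e and Cd3g at 0 in every sample. The sum of 22 immediate early genes, which respond to handling among other stimuli, was 2472 to 4922 against 871 to 1362. That of 24 proliferation genes was 6021 to 6372 against 6854 to 7040, that of 8 mast cell and basophil markers 744 to 865 against 574 to 604, that of 10 megakaryocyte markers 264 to 308 against 254 to 280, and that of the 12 myeloid progenitor markers 25347 to 27743 against 25114 to 25991. Only the last 2 sums overlapped between the groups. Single markers within a sum could move opposite ways. Of 12 myeloid progenitor markers tested 6 were higher and 2 lower, and of 9 megakaryocyte markers tested 2 were higher and 3 lower. Of 7 mast cell and basophil markers tested 5 were higher and 1 lower. Of all tested genes 17.9% were higher and 16.3% lower. The part of these cell types and states in the levels of the ribosomal protein genes was not tested.

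Reads of ribosomal protein genes can also fall on their many pseudogenes, of which 185 rows were left out of the members and 127 had any count. Those rows took 0.0495% ± 0.0020 (SD) of the counts in NA MPs and 0.0437% ± 0.0016 in WT MPs. The most counted were Rpl3-ps1, at a mean of 322 expected counts, or 2.69% of Rpl3, and Rpl10a-ps1, at 311, or 5.27% of Rpl10a. With the pseudogene counts added to their parents, 33 large and 25 small subunit genes were higher, the same numbers as without. Of the 76 genes, 20 share exon bases with another gene and 30 hold small nucleolar RNA genes within them, so their counts are less certain than those of the others.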

How the data were processed

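Per the labels and the study's methods, the authors used RSEM on reads of each library, and the deposited values are its expected counts per gene, with no scaling between samples. The labels also name bcl2fastq, DESeq2 and the build mm10, without versions. Of the values of subunit genes 98.4% were not whole, and all were rounded. Totals ran from 6602851 to 6734284 a sample.

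The main test was the robust quasi-likelihood test of edgeR 4.0.16 (R 4.3.3) over all 9 samples, after TMM scaling and filterByExpr (minimum count 10, 11966 genes kept), with Benjamini-Hochberg adjustment over all tested genes at 0.05. Fold changes are NA MPs over WT MPs. Normalised counts are counts divided by the TMM-scaled library size and multiplied by its mean. Fits were tested on simulated data. Lengths, GC content and positions came from GENCODE M21 (GRCm38) and start sites from RefSeq. Symbols came from a table that matched 32916 identifiers.

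Members and lists were chosen with earlier results of these data known. Genes were named by rule: the 6 largest rises and falls of each subunit past the threshold, its 3 most counted per kilobase, the P stalk, the disease genes, the paralogues, and the 2 largest rises and falls of each other list. Those named outside it (Rpl5, Rpl14, Rpl22, Rpl31, Rpl36a, Rpl37, Rps2, Rps7 and further genes of the other lists) were chosen after their values were seen. A few genes that the rule takes are not reported here.

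Alternatives were RLE scaling, library size only, TMM without ribosomal protein genes, DESeq2 1.42.0, no filter, a stricter filter, a test that is not robust, a threshold of 0.01, a test against 1.2-fold, a replicate block, pseudogene counts added, a loess correction for GC content and length (span 0.5), that correction with the block, and leaving out each sample.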

Additional observations from a re-analysis of the deposited data

Results flagged for a closer look

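In 258 groups of 4 or 5 samples, 11 had a sample that stood apart from the rest by Dixon's criterion, which flags about 1 in 20 groups by chance (12.9 here). Among large subunit genes these were NA MP replicate 1 for Rpl14 (7099.9 normalised counts, the others up to 6824), WT MP replicate 5 for Rpl4 (18691, the others from 19592), WT MP replicate 1 for Rpl10a (6069.9, the others up to 5682) and Rpl21 (6671, the others up to 6287), and for Rpl36 both NA MP replicate 2 (2780.3, the others up to 2643) and WT MP replicate 1 (2555, the others up to 2365). NA MP replicate 3 stood apart for the rarely counted Rps4l (1.003 normalised counts, the others at 0).

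Outside the name rule, WT MP replicate 1 stood apart for Snhg17 (352.3, the others up to 313), and NA MP replicate 1 for Polr1b (693, the others up to 648). The ratio of large to small subunit counts of WT MP replicate 5 was 1.304, against 1.312 to 1.315 in the other WT MPs. The median log2 deviation of the initiation genes in NA MP replicate 1 was -0.01732, against -0.045 to -0.043 in the other NA MPs.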

How the results depend on the processing

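In edgeR's test against a change of 1.2-fold, 1046 genes were past the threshold, against 4093, and they included 0 large subunit, 0 small subunit, 0 Diamond-Blackfan or 5q, 0 elongation, 0 initiation, 0 biogenesis and 0 RNA polymerase I genes (at an unadjusted p under 0.05, 1 biogenesis gene and 0 of the others). At a threshold of 0.01 the changed genes of the 6 other lists of the translation machinery were 34 in place of 58, the biogenesis genes that were lower 16 in place of 30, and the initiation genes that were lower 5 in place of 10. By DESeq2, 19 biogenesis genes were lower. With the correction for GC content and length the median log2 fold changes were 0.060 (large subunit) and 0.069 (small subunit), and with the replicate block added the large subunit's was 0.063, 3 elongation genes were higher in place of 5, and 5 RNA polymerase I genes were lower in place of 3. Rplp1 turned to -0.013 with the correction and to -0.012 with the correction and the block. Why these values moved was not tested.

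Leaving out 1 sample at a time gave 26 to 36 large and 21 to 27 small subunit genes, medians of 0.081 to 0.11 and 0.087 to 0.11, 12 to 16 Diamond-Blackfan or 5q genes, 21 to 30 biogenesis, 4 to 5 elongation, 2 to 3 RNA polymerase I and 6 to 10 initiation genes, the last 6 without WT MP replicate 3 or 4. The subunit genes with a fold change above 0 were 72 of 76 with library size only, 69 with the correction, and 72 to 76 with a sample left out. All other alternatives kept the direction of the counts and medians, while the number of subunit genes called varied. It was 25 large and 20 small with library size only, and 25 and 21 with the replicate block. At a threshold of 0.01 fewer subunit genes passed edgeR's test, and Rpl4 (adjusted p = 0.0115) and Rps14 (adjusted p = 0.0134) were among those that did not.

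The replicate numbers, shared as 1 to 4, did not pair the samples (correlations of same-numbered samples from -0.024 to 0.056). With the replicate block 25 large and 21 small subunit genes and 3674 genes in all were called.

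Depth was alike in all samples, and counts of a few reads, as for Rpl3l and Rps4l, limit any estimate of size.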
